A study of Mus musculus with 8 samples.

Results

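Oligodendrocyte precursor cells (OPCs) are the dividing glial cells of the brain that can give rise to myelinating oligodendrocytes. In single nuclei RNA sequencing (snRNA-seq) of mouse cortex, 317 of the 54341 nuclei that passed the quality limits (0.583%) were taken as OPC nuclei. They were selected on their own unique molecular identifiers (UMIs, one for each captured RNA molecule): at least 1 UMI of Pdgfra, the receptor for platelet-derived growth factor A that OPCs need to divide and survive, and at least 2 UMIs in sum of the proteoglycan genes Vcan and Cspg4. A nucleus was left out if it held more than 1 UMI of the glutamatergic neuron gene Slc17a7, more than 2 of the GABAergic neuron genes Gad1 and Gad2 in sum, or any UMI of Mog (myelin) or Csf1r (microglia). The quality limits were 200 to 6000 genes, over 1000 UMIs and under 10% mitochondrial UMIs.

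The cortices came from 4 Wt mice (Ifnar1+/+) and 4 Ifnar1-/- mice, all C57BL6J, 6 weeks old and naive, with 2 females (F1, F2) and 2 males (M1, M2) of each genotype and 1 library per mouse. Ifnar1 encodes a subunit of the receptor for type I interferons. The knockout is carried by every cell of the animal, and the line was backcrossed onto this strain. The question put to these nuclei was whether OPCs without the receptor differ from Wt OPCs in number, state or expression.

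As background, type I interferon binds a receptor made of Ifnar1 and Ifnar2, which acts through the kinases Jak1 and Tyk2 on transcription factors that include Stat2 and Irf9. These enter the nucleus and turn on interferon-stimulated genes, among them the gene of Stat2 itself. OPCs are spread through the cortex, receive synapses from neurons, carry glutamate and GABA receptors, and keep their precursor state under Pdgfra and Notch signals until they stop dividing and turn on myelin genes.

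The deposited libraries held 4499 to 10249 barcodes and 44063300 to 58423400 UMIs. OPC nuclei numbered 14, 29, 66 and 29 in Wt F1, F2, M1 and M2, and 85, 23, 24 and 47 in Ifnar1-/- F1, F2, M1 and M2, with 60171 to 213444 UMIs per library and 977088 in all. No barcode of an OPC nucleus occurred in more than 1 library. Xist matched the labelled sex in all 8 libraries. Ifnar1-/- F1 stood apart, with the most OPC nuclei and the fewest UMIs per OPC nucleus (median 1920, against 2123 to 4521 elsewhere). Ifnar1-/- M2 had the highest mitochondrial share of OPC UMIs, 2.69% against 0.316 to 1.10% elsewhere.

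The label held against genes that the selection did not use. Lhfpl3, Ptprz1, Tnr and Pcdh15, which are known to be high in OPCs, had UMIs in 317 of 317 nuclei. The lineage genes Sox10, Olig1 and Olig2 had UMIs in 218, 134 and 98 of the 317. In Wt, levels in CPM (UMIs of the gene per 1000000 UMIs of the class in that library) were 5766 for Lhfpl3 in OPC nuclei, 118 in mature oligodendrocytes (nuclei with a Mog UMI and none of Pdgfra or Csf1r) and 199 in glutamatergic neurons (nuclei with at least 2 Slc17a7 UMIs). Ptprz1, a receptor phosphatase of the chondroitin sulphate proteoglycan group, stood at 3252 CPM, against 39.3 and 27.6 CPM. Sox10, the lineage transcription factor, was at 424 CPM in Wt OPC nuclei and at 328 CPM in mature oligodendrocytes, but at 0.901 CPM in the glutamatergic neurons. These levels describe the nuclei and were not tested, since the nuclei were chosen on genes of the same profile. The sum of those first 4 genes made up a median of 1.78% of the UMIs of an OPC nucleus, and fell below 1% in 14 of the 317. Of markers of other types, Col1a1, Lum, Rgs5 and Kcnj8 were at 0 in all nuclei, Dcn had 1 UMI and Gja1 2.

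At the edge of the rule, 61 nuclei had exactly 2 UMIs of Vcan and Cspg4 in sum, with a median of 2108 UMIs, and 82.0% of them held a UMI of Sox10, Olig1 or Olig2. The 55 nuclei that failed with exactly 1 had a median of 2017 UMIs and 76.4% with such a UMI. A further 56 of 373 nuclei that met the positive limits failed a negative one, 25 of them on Slc17a7.

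OPC nuclei made up 0.256%, 0.485%, 0.689% and 0.453% of kept nuclei in Wt F1, F2, M1 and M2. The shares in Ifnar1-/- F1, F2, M1 and M2 were 0.983%, 0.523%, 0.324% and 0.727%. The groups overlapped, and the library highest of all was Ifnar1-/- F1. The means were 0.471% ± 0.178 (SD, n = 4) and 0.639% ± 0.282 (SD, n = 4), a difference of 0.168 percentage points that was within the spread between mice (two-sided exact permutation test over libraries, p = 0.343, and 0.943 after Benjamini-Hochberg adjustment over 4 such tests; the smallest p that 4 against 4 allow is 0.0286). Without Ifnar1-/- F1 the difference was 0.0537 points. A share of nuclei is not a number of cells in the tissue, since it also moves with the nuclei of all other types.

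**Figure D1:**
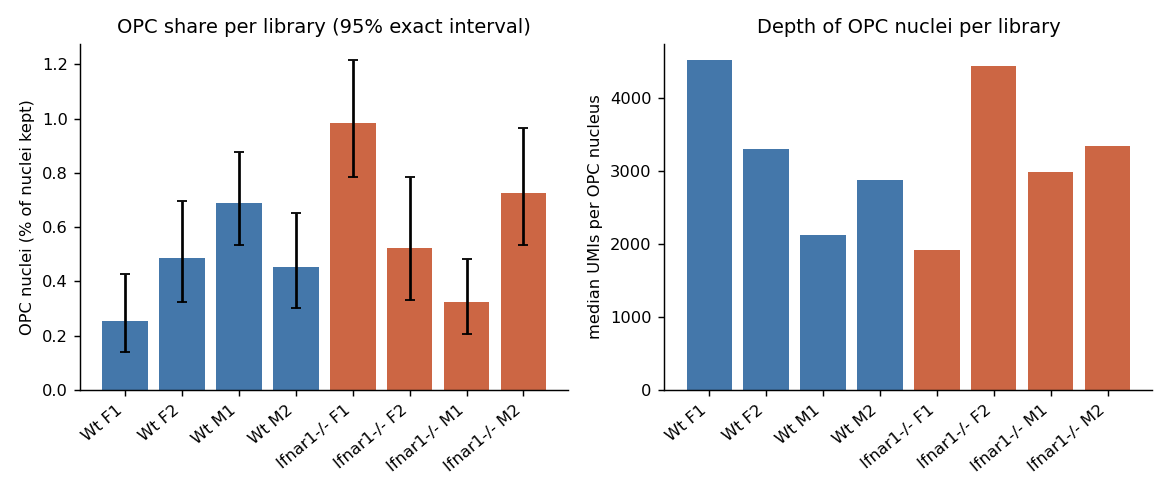
The left bars show OPC nuclei as a percentage of kept nuclei in each of the 8 libraries, with 95% exact (Clopper-Pearson) intervals that cover counting error only, and the right bars the median UMIs of an OPC nucleus. Shares run from 0.256% in Wt F1 to 0.983% in Ifnar1-/- F1 and the genotypes overlap in both measures.

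The median OPC nucleus held 4521, 3308, 2123 and 2875 UMIs in Wt F1, F2, M1 and M2, and 1920, 4440, 2986 and 3352 UMIs in Ifnar1-/- F1, F2, M1 and M2. The means over libraries, 3207 ± 1004 and 3175 ± 1040 UMIs (SD, n = 4 each), did not differ beyond their spread (exact permutation p = 0.943). With every nucleus thinned to 1000 UMIs, a UMI of a list of 26 cell cycle genes was seen in 7.14%, 24.1%, 6.06% and 3.45% of nuclei in Wt F1, F2, M1 and M2. In Ifnar1-/- the shares were 11.8%, 4.35%, 12.5% and 8.51% (exact permutation p = 0.914). Glutamatergic neurons, which do not divide, gave 7.10 to 9.12% per library at the same thinned depth (median depth before thinning 6130.5 to 13878 UMIs). The OPC shares lay above that range in Wt F2, Ifnar1-/- F1 and Ifnar1-/- M1 and within or below it in the others, each resting on 1 to 10 nuclei with such a UMI, and no cycling is read from them. The proliferation gene Mki67 had UMIs in 5 OPC nuclei and Top2a in 3.

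A list of 12 genes stood for committed precursors, the cells that have left the OPC state and have begun to differentiate. At the thinned depth 85.1 to 100% of OPC nuclei in each library held a UMI of the 12 genes listed, against 71.3 to 78.8% of mature oligodendrocytes and 17.7 to 22.0% of glutamatergic neurons. The means were 92.3% in Wt and 90.9% in Ifnar1-/- (exact permutation p = 0.743). Gpr17, a receptor that marks the step towards oligodendrocytes, stood at 249, 350, 283 and 462 CPM in Wt F1, F2, M1 and M2, and at 314, 403, 335 and 482 CPM in Ifnar1-/- F1, F2, M1 and M2. The groups overlapped (log2 fold change 0.20 ± 0.24 SE). At the thinned depth Gpr17 alone had a UMI in 7.14 to 37.9% of OPC nuclei per library. Without thinning, the further marker genes Neu4, Bmp4 and Enpp6 had UMIs in 134, 11 and 3 of the 317 OPC nuclei. Whether these nuclei had left the OPC state was not tested. Among the committed precursor genes, 9 passed the count filter, 6 higher and 3 lower in the knockout, with a median of 0.10 on the log2 scale against -0.01 over all genes tested. The 2 without overlap, where 2.34% of all genes tested had none, were both among the lower. Fyn, a kinase that acts early in myelination, lay at 326 to 382 CPM in Wt and 187 to 320 CPM in Ifnar1-/-, and Tmem163 at 320 to 499 and 225 to 293 CPM. Neither passed the test.

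For the genes, UMIs were summed per library over OPC nuclei, and 2182 genes had enough of them to be tested. By the quasi-likelihood test of edgeR, 0 of them (0%) passed the threshold of 0.05 on the adjusted p, and 65 (2.98%) had an unadjusted p under 0.05. DESeq2 called 0, with 23 at an unadjusted p under 0.05. In sums like these, fewer nuclei that express a gene and less of its RNA per nucleus cannot be told apart. In 51 genes (2.34%) the 4 libraries of one genotype lay entirely above those of the other.

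The antisense transcript Gm43713 had the lowest p. It stood at 116, 35.0, 55.4 and 67.5 CPM in Wt F1, F2, M1 and M2, and at 323, 119, 189 and 250 CPM in Ifnar1-/- F1, F2, M1 and M2. Every Ifnar1-/- library was above every Wt library (log2 fold change 1.88 ± 0.40 SE, unadjusted p = 0.000368 in edgeR). Gm43713 lies on chromosome 3 from 88845025 to 88900001 (GRCm38), inside Gon4l, a gene of a nuclear regulator from 88835231 to 88910103, so that reads of the overlapping pair are uncertain. Gon4l itself stood at 83.1, 70.0, 105 and 56.3 CPM in Wt F1, F2, M1 and M2. In Ifnar1-/- F1, F2, M1 and M2 it stood at 145, 146, 218 and 131 CPM, again without overlap (log2 fold change 0.94 ± 0.29 SE). Gon4l had fold changes of 1.04 ± 0.13 in mature oligodendrocytes, 1.02 ± 0.07 in glutamatergic neurons and 0.84 ± 0.16 in microglia on the log2 scale (± SE), from the same 8 libraries.

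The other 8 genes of lowest p were Gm12394 (log2 fold change 1.64), Tshz3, a zinc finger homeobox gene (0.98), Grik1 (-0.76), Abca1, the cholesterol exporter (0.89), Rin2 (0.75), Zdhhc21, a palmitoyl transferase (-1.15), Itsn1, an endocytic scaffold (-0.89), and Mprip (0.93). None of them passed the adjusted test. Abca1 lay at 61.2 to 133 CPM in Wt and 145 to 220 CPM in Ifnar1-/-. Zdhhc21 lay at 99.7 to 146 CPM in Wt and 18.3 to 62.6 CPM in Ifnar1-/-.

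**Figure D2:**
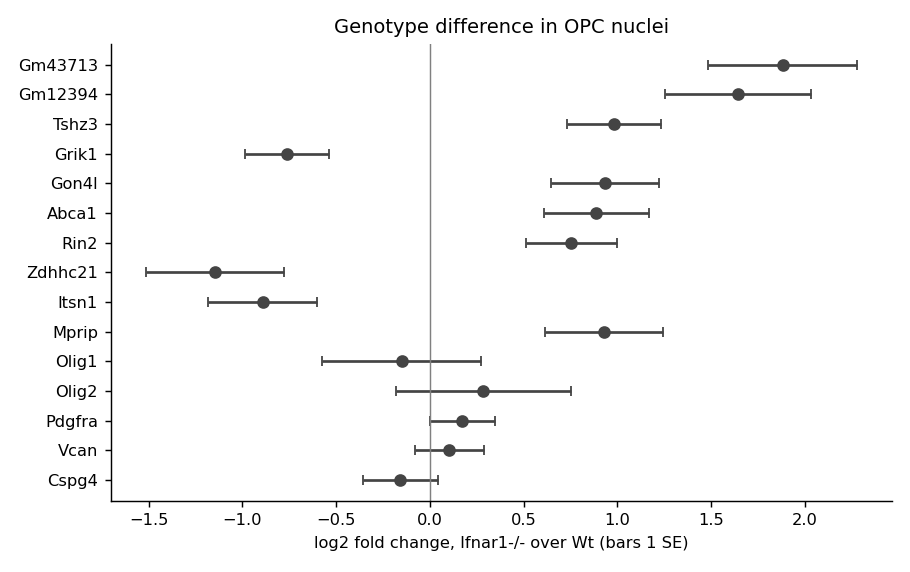
Points show the log2 fold change of Ifnar1-/- over Wt in OPC nuclei (horizontal axis, bars 1 SE, n = 4 libraries a genotype) for the 10 genes of lowest p and for Olig1, Olig2 and the 3 genes that selected the nuclei. Gm43713 at 1.88 and Gm12394 at 1.64 lie farthest from 0, no gene passed the adjusted test, and Pdgfra, Vcan and Cspg4 are shown as a description.

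Grik1 was the gene called for a genotype difference that was not the same in OPCs and mature oligodendrocytes. It encodes a kainate-type glutamate receptor subunit. In OPC nuclei Grik1 stood at 299, 411, 363 and 360 CPM in Wt F1, F2, M1 and M2, and at 244, 165, 204 and 219 CPM in Ifnar1-/- F1, F2, M1 and M2. Each Ifnar1-/- library was below each Wt library, with means of 358 ± 45.9 and 208 ± 33.1 CPM (SD, n = 4 each), and within either sex the Wt mean was the higher. In mature oligodendrocytes of the same mice it stood at 212, 220, 218 and 212 CPM in Wt F1, F2, M1 and M2. There the Ifnar1-/- libraries F1, F2, M1 and M2 gave 410, 557, 440 and 454 CPM, all above Wt.

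The log2 fold change of Grik1 was -0.76 ± 0.22 (SE) in OPC nuclei and 1.13 ± 0.15 in mature oligodendrocytes. The difference between them was tested in a fit with the library as block. Grik1 was the 1 gene of 2182 (0.0458%) past the threshold, at -1.85 ± 0.26 (SE; edgeR’s Benjamini-Hochberg adjusted p = 0.00261). It stayed past it without each library in turn, without TMM scaling and with the wider gate described in the processing (-2.04 to -1.65, adjusted p 0.00151 to 0.0495). In the OPCs alone the change did not pass the adjusted test. Glutamatergic neurons stood at 99.6 ± 19.5 and 109 ± 14.4 CPM in Wt and Ifnar1-/- (SD, n = 4 each), and the difference of OPCs from them (-0.94) did not pass the adjusted test.

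**Figure D3:**
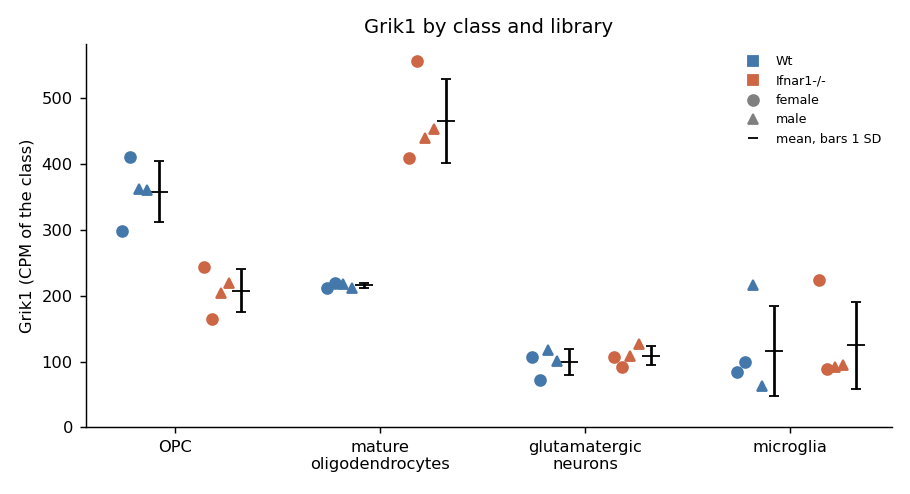
Points show Grik1 in CPM of the class (vertical axis) in each library, circles for females and triangles for males, with mean and SD beside them, for OPC nuclei, mature oligodendrocytes, glutamatergic neurons and microglia. In OPCs all 4 Ifnar1-/- libraries (165 to 244 CPM) lie below the 4 Wt libraries (299 to 411 CPM), and in mature oligodendrocytes the order is the opposite.

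Grik1 lies on chromosome 16 from 87895900 to 88290265 on the minus strand, 3.195 Mb from Ifnar1 (91485238 to 91507441). Itsn1 lies 0.222 Mb on the other side of Ifnar1, from 91729281 to 91920597, and the lineage genes Olig2 and Olig1 lie 0.257 and 0.213 Mb before it. Itsn1 stood at 150, 122, 160 and 113 CPM in Wt F1, F2, M1 and M2 and at 60.9, 54.9, 72.7 and 100.2 CPM in Ifnar1-/- F1, F2, M1 and M2, without overlap (log2 fold change -0.89 ± 0.29 SE, not past the adjusted test). In mature oligodendrocytes and glutamatergic neurons its fold change was -0.03 ± 0.14 and -0.02 ± 0.09 on the log2 scale (± SE). Olig1 (log2 fold change -0.15 ± 0.42 SE) and Olig2 (0.28 ± 0.47 SE) overlapped between genotypes. Of 66 listed genes within reach of Ifnar1 on that chromosome, 14 were tested, 8 were higher and 6 lower in the knockout, and 2 of the 14 (Grik1 and Itsn1) did not overlap, against 2.34% of all genes tested. Their median was 0.09 on the log2 scale, against -0.01 over all 2182 genes. Whether sequence carried along with the deleted allele has a part in these values was not tested.

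Against microglia 0 genes passed the test of the difference (31 at an unadjusted p under 0.05), and against glutamatergic neurons 0 (84 at an unadjusted p under 0.05). Without Ifnar1-/- F1 the latter became 5 genes: Lingo2, Kcnip4, Cacng4, Cntn5 and Hs6st3, named after their values were seen. The lowest unadjusted p against neurons was that of Fstl5, at 24.6 to 96.2 CPM in Wt OPC nuclei and 81.4 to 156 CPM in Ifnar1-/-.

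UMIs of Ifnar1 itself numbered 1, 5, 3 and 2 in OPC nuclei of Wt F1, F2, M1 and M2 and 2, 3, 0 and 3 in Ifnar1-/- F1, F2, M1 and M2. In Ifnar1-/- M1, 0 of 68741 UMIs allows a level of up to 43.6 CPM. Reads counted at the 3′ end and in introns need not fall in the deleted part, so these counts are no check of the genotype. Ifnar2, the other receptor subunit, had 12 UMIs in each genotype, and Jak1, the kinase bound to Ifnar2, 21 and 44 UMIs in Wt and Ifnar1-/-. UMI counts given here and below are raw and are not levels. The OPC nuclei of Ifnar1-/- held more UMIs in all than those of Wt.

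A list of 66 interferon-stimulated genes was taken as a whole, since none of its members reached the count filter. In OPC nuclei 38 of them had a UMI, 195 UMIs in Wt and 154 in Ifnar1-/-. Their summed level was 465, 429, 504 and 405 CPM in Wt F1, F2, M1 and M2. In Ifnar1-/- F1, F2, M1 and M2 it was 319, 293, 291 and 213 CPM. All 4 Ifnar1-/- libraries lay below all 4 Wt libraries, with means of 451 ± 43.4 and 279 ± 45.7 CPM (SD, n = 4 each). Of the 28 lists used, this was the 1 whose summed level did not overlap between the genotypes. For a single list, chance alone gives no overlap at a rate of 0.0286 (70 ways to split the 8 libraries). Among 28 lists, 1 without overlap is therefore near what chance gives. The sum is given as a description, with no test.

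The 15 members with at least 10 UMIs over all libraries were singled out after their values were seen. The mean level of 13 of them was lower in Ifnar1-/-, as it was for 23 of all 38 members with a UMI, with 15 higher. Over the 10178 genes with at least 10 UMIs, 51.1% had the lower mean in Ifnar1-/-. Ifi27, an interferon-induced gene of the mitochondrial membrane, stood at 66.5, 43.7, 49.2 and 45.0 CPM in Wt F1, F2, M1 and M2. In Ifnar1-/- F1, F2, M1 and M2 it stood at 18.7, 0, 14.5 and 12.5 CPM, from 21 and 7 UMIs. Stat2, a transcription factor downstream of the receptor, had 10 and 5 UMIs, at 18.5 to 33.2 and 0 to 18.3 CPM. The genotypes did not overlap in Ifi27 or in Stat2, as was the case in 2.31% of the genes with at least 10 UMIs. In Stat2 only the step from 18.3 to 18.5 CPM separated them, and no difference is read from it. A count of 0 allows a level of up to 14.06 to 43.64 CPM, depending on the Ifnar1-/- library. For Ifi27 in Ifnar1-/- F2 that limit is 27.45 CPM. The RNA editing enzyme Adar, with 24 and 23 UMIs, overlapped, and so did the RNA sensor Ddx58, with 11 and 13.

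Under the stricter rule for OPC nuclei the whole sum was 408 to 496 and 227 to 390 CPM, and with the wider gate 373 to 494 and 228 to 297 CPM. In mature oligodendrocytes it was 306 to 338 CPM in Wt and 273 to 287 CPM in Ifnar1-/-. In glutamatergic neurons (301 to 329 and 294 to 315 CPM) and in microglia (819 to 1765 and 452 to 1114 CPM) the genotypes overlapped. The log2 ratio of the means, Ifnar1-/- over Wt, was -0.69 in OPC nuclei and -0.71 in microglia. It was -0.23 in mature oligodendrocytes and -0.05 in glutamatergic neurons. The size of the difference in OPCs was not tested against that in other classes.

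Markers of other cells that carry interferon genes were summed in the same OPC nuclei. The 11 microglia markers stood at 116 to 172 CPM in Wt and 91.5 to 276 CPM in Ifnar1-/-, with the defining gene Csf1r at 0 by the selection. The 7 endothelial markers stood at 8.75 to 129 CPM in Wt and 0 to 29.1 CPM in Ifnar1-/-. Their part in the interferon values was not tested.

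**Figure D4:**
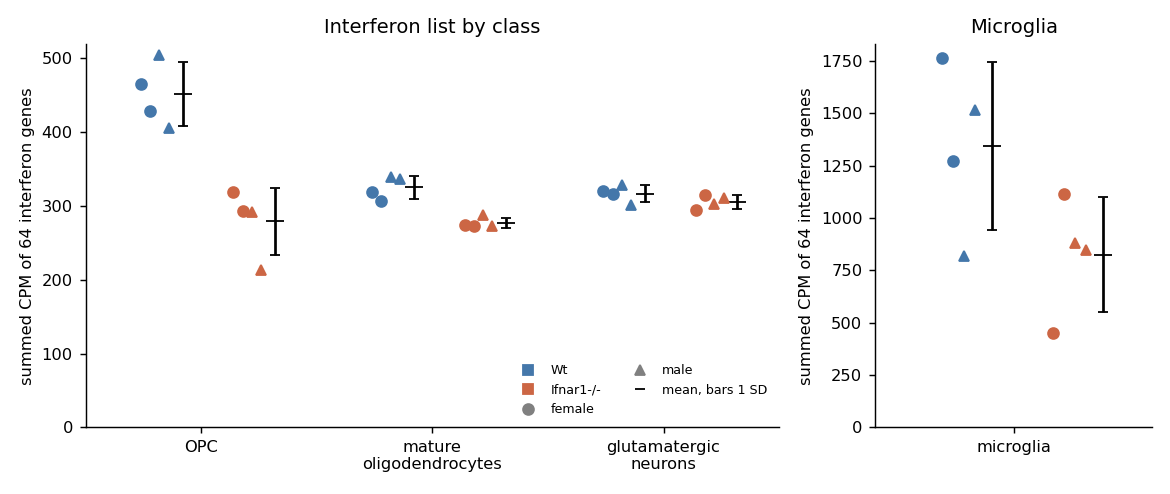
Points show the summed CPM of the interferon-stimulated genes found in the files (vertical axis) in each library, with mean and SD beside them, for OPC nuclei, mature oligodendrocytes and glutamatergic neurons on the left and for microglia, on their own scale, on the right. In OPC nuclei the Wt libraries (405 to 504 CPM) and the Ifnar1-/- libraries (213 to 319 CPM) do not overlap.

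The 250 bases before the 5′-most RefSeq start of each gene were searched on both strands for GAAANNGAAA, the core of the interferon-stimulated response element that Stat2 and Irf9 bind as part of a complex. Of 51 list genes in the RefSeq promoter table (GRCm38.p6), 39.2% held it, against 3.05% of 27025 genes in all. Of the 11 matched genes with at least 10 UMIs in OPC nuclei, 2 held it, Stat2 and Trim30a. Their sequences are shown with that of Znfx1, a further member with fewer UMIs in Ifnar1-/- (10 and 4) that has no match, 5′ to 3′ on the strand of the gene, with the match in capitals (the reverse complement where it reads TTTC). A match is a description of the letters and not a site.

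Stat2 (chr10:128270248-128270497, plus strand): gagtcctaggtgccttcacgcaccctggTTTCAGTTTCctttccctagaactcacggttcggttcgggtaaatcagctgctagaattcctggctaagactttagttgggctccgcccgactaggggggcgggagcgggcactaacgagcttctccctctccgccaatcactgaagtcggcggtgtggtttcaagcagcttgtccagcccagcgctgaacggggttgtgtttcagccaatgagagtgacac
Trim30a (chr7:104465194-104465443, minus strand): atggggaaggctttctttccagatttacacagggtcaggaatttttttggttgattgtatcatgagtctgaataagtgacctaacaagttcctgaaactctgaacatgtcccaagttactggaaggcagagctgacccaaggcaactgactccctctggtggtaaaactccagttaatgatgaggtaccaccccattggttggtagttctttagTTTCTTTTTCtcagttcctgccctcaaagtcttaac
Znfx1 (chr2:167063016-167063265, minus strand): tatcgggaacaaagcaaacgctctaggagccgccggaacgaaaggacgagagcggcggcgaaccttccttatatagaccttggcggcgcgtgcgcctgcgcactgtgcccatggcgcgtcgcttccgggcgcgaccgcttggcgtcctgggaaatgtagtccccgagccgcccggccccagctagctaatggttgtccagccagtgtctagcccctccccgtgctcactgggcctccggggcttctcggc

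Trim30a, 1 of the 2 genes with the match, had 6 UMIs in Wt and 7 in Ifnar1-/-, and Stat2 is described above.

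Genes called between the genotypes in other classes of these nuclei were listed with those results known. Of the 20, 4 were tested in OPC nuclei. Gon4l, Gm43713 and Grik1 are given above, and Esrrg, a nuclear receptor gene, was at 133 ± 35.8 and 106 ± 24.6 CPM in Wt and Ifnar1-/- (SD, n = 4 each). Below the filter, Gm15446 had 28 UMIs in Wt and 2 in Ifnar1-/-, Gm15965 14 and 2, and Pkd1l2 8 and 0. Gm15446 lay at 33.2 to 105 CPM in Wt and 0 to 9.15 CPM in Ifnar1-/-.

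No member of the remaining lists passed the adjusted test. Of 20 OPC identity genes 17 were tested, 10 higher and 7 lower in the knockout. Their median was 0.02 on the log2 scale and none was without overlap. Among the highest, Lhfpl3 was at 5766 ± 694 and 6261 ± 1031 CPM in Wt and Ifnar1-/-, Tnr, a matrix glycoprotein of perineuronal nets, at 3997 ± 754 and 4377 ± 1033, Pcdh15 at 3531 ± 406 and 3727 ± 647, and Ptprz1 at 3252 ± 330 and 3268 ± 452 CPM (SD, n = 4 each). The differences of these 4 were all within the spread between libraries.

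Growth factor genes showed 9 of 15 tested members higher and a median of 0.15. Erbb4, the neuregulin receptor, lay at 2648 ± 483 and 2565 ± 535 CPM (SD, n = 4 each). Its ligand gene Nrg1 stood at 848, 1496, 1279 and 1249 CPM in Wt F1, F2, M1 and M2 and at 1012, 695, 786 and 576 CPM in Ifnar1-/- F1, F2, M1 and M2, where 1 library overlapped (log2 fold change -0.66 ± 0.23 SE, not past the adjusted test).

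Of 20 tested glutamate receptor genes, 10 were higher and 10 lower (median -0.01), and Grik1 was the 1 of 20 without overlap, against 2.34% of all genes tested. Gria2, the AMPA receptor subunit that limits calcium entry, lay at 1524 ± 265 and 1548 ± 475 CPM, Grm5 at 983 ± 237 and 922 ± 146 CPM and Grik2, the other main kainate subunit, at 964 ± 202 and 881 ± 129 CPM in Wt and Ifnar1-/- (SD, n = 4 each). All 9 tested GABA receptor genes were higher in Ifnar1-/-, with a median of 0.12 and none without overlap, and with the wider gate their median was -0.01. Ion channel genes (10 of 23 higher, median -0.03), proteoglycan and matrix genes (6 of 12, median -0.06) and Notch and Wnt genes (5 of 9, median 0.00) lay near the median of all genes. The 9 tested genes encoded in mitochondria were all higher in Ifnar1-/-, with a median of 0.60, and none passed or was without overlap. Their summed level was 3158 to 10964 CPM in Wt and 3633 to 26876 CPM in Ifnar1-/-, and the top value was that of M2. Of 3 tested myelin genes 2 were higher (median 0.04), and each list not described here had at most 4 tested members.

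Females and males were compared over the same nuclei with genotype as a term. Of 2182 genes 72 passed (3.30%), 56 higher in males (2.57%) and 16 lower (0.733%), and the leading principal component (32.5% of the variance) separated the sexes. Without Wt F2 the count was 29, and without Wt M2 it was 38. The genes of the sex chromosomes led: Xist and Tsix in females, Eif2s3y and Uty in males.

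Several genes of OPC identity were among the 72. C1ql1, a secreted protein that OPCs express, stood at 249, 184, 155 and 329 CPM in females (Wt F1, F2, Ifnar1-/- F1, F2) and at 572, 563, 684 and 513 CPM in males (Wt M1, M2, Ifnar1-/- M1, M2). All males lay above all females (log2 fold change 1.38 ± 0.23 SE, edgeR’s adjusted p = 0.00338). Cspg5, neuroglycan C, stood at 1228 ± 141 and 2577 ± 618 CPM in females and males (SD, n = 4 each; 1.06 ± 0.17 SE, edgeR’s adjusted p = 0.00224). Olig1 was at 139 ± 64.2 and 302 ± 63.7 CPM (1.19 ± 0.29 SE, adjusted p = 0.0337), and its neighbour Olig2 did not pass (1.08 ± 0.37 SE). Matn4, a matrix gene of OPCs, Hes5, a Notch target, and Gabbr1, a GABA-B receptor subunit, were also higher in males. Of 17 tested identity genes 3 passed, all higher in males, where 2.57% of all genes tested were called higher, and the median over the list was 0.13 against -0.03 over all genes.

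**Figure D5:**
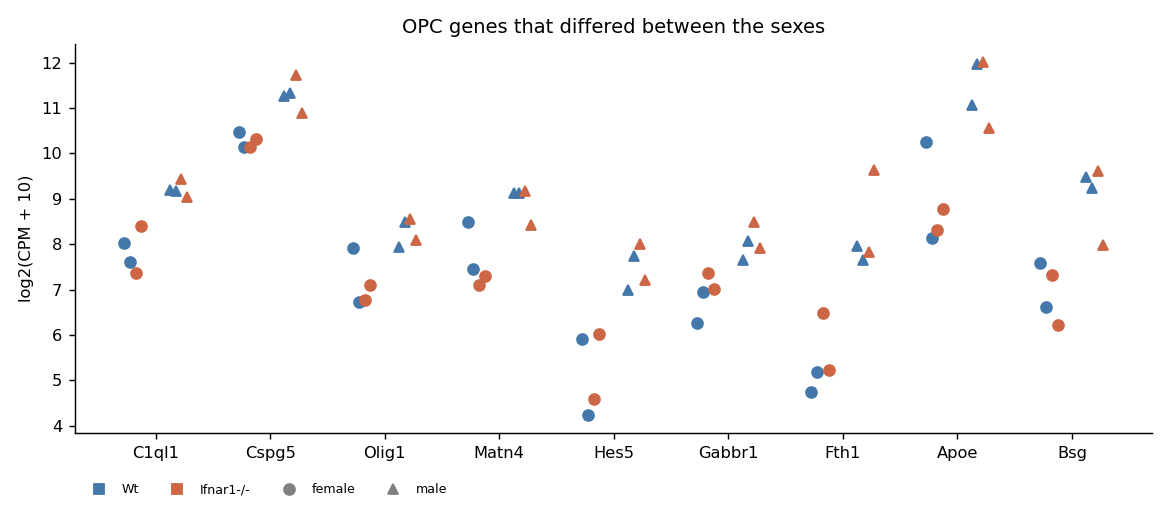
Points show log2(CPM + 10) in OPC nuclei of each library for 9 genes past the test between the sexes, circles for females and triangles for males, coloured by genotype. For C1ql1, Cspg5, Hes5 and Apoe all 4 male libraries lie above all 4 female libraries.

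Outside the lineage the ferritin gene Fth1 stood at 37.5 ± 28.5 CPM in females and 358 ± 284 CPM in males (SD, n = 4 each), Apoe, a lipid carrier made by astrocytes, at 556 ± 443 and 2938 ± 1325 CPM, and Bsg, a transporter partner, at 121 ± 54.8 and 578 ± 234 CPM. Pcsk1n and Gm44511 moved by 3.03 and -2.06 on the log2 scale. Of the 9 tested mitochondrial genes 5 passed, all higher in males, where 2.57% of all genes tested were called higher. Values that describe the libraries moved with sex in the same way. The mitochondrial share of OPC UMIs was 0.316 to 0.812% in females and 0.902 to 2.69% in males, the share of the nuclear RNA Malat1 5.88 to 8.31% and 4.02 to 5.77%, and the median share of Lhfpl3, Ptprz1, Tnr and Pcdh15 1.83 to 2.12% and 1.63 to 1.75%. The difference was also present in classes that should lack the OPC genes: Olig1 differed by 2.06 ± 0.54 and C1ql1 by 2.11 ± 0.39 (log2, ± SE) in glutamatergic neurons, where their levels were 1.62 and 0.663 CPM in Wt, and Apoe by 2.61 ± 0.30. The part of free RNA and of library quality in the sex difference was not tested.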

How the data were processed

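The deposited values are raw UMI counts per gene and nucleus barcode. The authors made them with Cell Ranger 3.1.0 and an mm10 reference changed to count unspliced RNA (10x Single Cell 3′ v3). The files held 56780 barcodes, of which 54341 passed the quality limits, so those limits had not been applied in the files. The 16000 nuclei loaded per library were the authors’ setting. Here nuclei were filtered and selected as stated, with Scrublet through scanpy 1.11.5 marking 2262 of the kept nuclei (14 OPC) as doublets, which were kept in the main results. A wider gate, chosen after seeing the data, added 146 nuclei that met the negative limits and had at least 1.5% of UMIs from Lhfpl3, Ptprz1, Tnr and Pcdh15. UMIs were summed per library and tested with edgeR 4.0.16 (TMM, filterByExpr, glmQLFit, glmQLFTest, R 4.3.3), with DESeq2 1.42.0 as an alternative. The difference between classes had the library as block. CPM were computed without TMM. Single values were compared by exact permutation over libraries. The exact intervals on shares were computed with scipy 1.17.1. Intervals and limits for 0 (3 UMIs) cover counting error only. The replicate labels (F1, F2, M1, M2) were not treated as pairs in the main tests. Deviations from the group means of same-labelled libraries correlated at -0.06, 0.21, 0.24 and 0.18. Sex was not removed from these deviations, so they cannot decide whether the labels pair the mice.

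The OPC selection and the gene lists were chosen with earlier results of these data known. Genes were named as those past the test (up to 15 by p), or else the 10 of lowest unadjusted p, the 4 tested members of highest level of each list, the receptor and lineage genes, and the genes of the rule and of other cell types. The edgeR test was tested on simulated data with 200 of 2182 genes changed. Between genotypes in OPCs it recovered 25% of 2-fold and 93.5% of 4-fold changes. Against mature oligodendrocytes, glutamatergic neurons and microglia it recovered 1%, 5.5% and 0% of 2-fold changes. The values there for 4-fold changes were 82%, 87% and 66.5%. A count of 0 genes called therefore does not show that 2-fold changes were absent. Gene positions are those of GENCODE M21 and promoters those of RefSeq, both GRCm38, the build of the files. Some members of the lists are not reported here.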

Additional observations from a re-analysis of the deposited data

Results flagged for a closer look

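Gm12394, chosen here for its low p between the genotypes, had 1 Wt library apart from the other 3 of its group, with a gap of 0.868 of the group’s range: Wt F1 stood at 99.7 CPM and the others at 55.4 to 61.2 CPM. Zdhhc21 had 1 Ifnar1-/- library apart from its group, with a gap of 0.900 of the range: F2 stood at 18.3 CPM and the others at 58.2 to 62.6 CPM. Chance alone sets a library apart in this way (Dixon’s test at 95%) in about 1 of 20 groups, where 2 of 80 groups were set apart here. Grik1 differed between OPCs and mature oligodendrocytes in its response to genotype by -1.85 on the log2 scale, with a test of the difference itself (adjusted p = 0.00261 in edgeR), and was lower in 4 of 4 Ifnar1-/- libraries in OPCs and higher in 4 of 4 in mature oligodendrocytes.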

How the results depend on the processing

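The call of no genotype gene held under DESeq2, without TMM, with sex as covariate, under the stricter rule, without Scrublet doublets, with the wider gate and without each library in turn (0 to 0 called). No nucleus held 2 UMIs of leptomeningeal genes, so leaving such nuclei out changed no value. With no filter on low counts 5 genes passed of 16924 (Prss48, Gm43713, Gm12394, Unc5d and Gm15446; 2 higher and 3 lower). With the replicate block 0 genes passed, with 67 at an unadjusted p under 0.05, and the mean difference in share was 0.168 points (exact sign-flip p = 0.625). Not every library correlated best with its own label. The sex count was 44 with DESeq2, 156 with no filter and 29 to 84 without 1 library. The count against mature oligodendrocytes stayed at 1 in all 10 alternatives, that against glutamatergic neurons was 0 to 5 and that against microglia 0 to 0 without 1 library. The share difference was 0.0537 to 0.274 points without 1 library, 0.0791 with thinning, 0.128 under the stricter rule and 0.340 with the wider gate, none past the test.

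Results with no call turned in sign. The difference in median UMIs was -454 to 406 without 1 library (406 without Wt F1, 1.5 without Wt F2, 386 without Ifnar1-/- F1, 30.6 without Ifnar1-/- M1). The cell cycle share difference was 9.32 points without thinning and -3.17 to 3.73 without 1 library (3.73 without Wt F2, 0.728 without Ifnar1-/- F2), and the committed precursor difference 0.604 points without thinning and -3.34 to 1.21 without 1 library (1.21 without Wt F1, 0.568 without Ifnar1-/- M2). The cause of these changes was not tested. The depth of 60171 UMIs in the smallest library sets what can be seen: a gene with no UMI there may stand at up to 49.9 CPM, and no interferon gene had enough UMIs for the test.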
